A study of Mus musculus with 8 samples.

Results

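The nuclear genes of the mitochondrial respiratory chain were examined in tumour-associated macrophages, the macrophages that settle in a growing tumour, from wild-type mice and from mice without the transcription factor ATF3. Members were all genes named by an array probe whose mouse symbol began with Ndufa, Ndufb, Ndufc, Ndufs or Ndufv (complex I), Sdha to Sdhd (complex II), Uqcr (complex III), Cox4i or Cox5 to Cox8 (complex IV) or Atp5 (complex V), without the Ndufaf symbols and those ending in -ps. The rule took 87 of the 17305 genes with a symbol on the array, and 109 of its 41174 probes: 36 genes of complex I, 8 of complex II, 8 of complex III, 18 of complex IV and 17 of complex V. The brightest probe stood for each of the 17 members with more than 1. Besides 75 common subunits it caught 5 factors that assemble or link complexes (Sdhaf1, Sdhaf2, Sdhaf3, Sdhaf4 and Cox7a2l) and 7 alternative isoforms of complex IV subunits. A further 8 symbols that fit the rule had no probe named here, Ndufa11 and Ndufb1 among them.

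All hosts were C57BL/6 mice that carried orthotopic tumours grown from PyMT breast cancer cells, and the 2 groups differed in host genotype, wild type (WT) or ATF3 knockout (KO). About 21 days after implantation the tumours were digested and cells positive for both F4/80 and CD45 were sorted. RNA of 4 WT and 4 KO samples was labelled with Cy3 and hybridised to 1-colour Agilent arrays, 1 array per sample. The labels place the knockout in the hosts, and the implanted tumour cells were of 1 kind for both groups. The labels do not say whether the samples of a group came from separate mice, so the p-values measure the spread between these samples, which may be technical.

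Complexes I to IV carry electrons from nutrients to oxygen and pump protons across the inner mitochondrial membrane, except complex II, which passes electrons on without pumping. Complex V, the ATP synthase, lets the protons flow back and makes ATP. Most subunits are encoded in the nucleus, and macrophages are known to shift between this route and glycolysis as they are activated. In mixed RNA such as this, fewer mitochondria-rich cells and less RNA per cell cannot be told apart.

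Levels are given as log2 of the background-corrected signal minus the 75th percentile of the same array, so that 0 is the brightness of that percentile and 1 unit is a doubling of signal. They compare samples for 1 probe and do not rank genes against each other. The arrays' 75th percentiles were 619 to 926 intensity units, which is 20.6 to 31.9 times local background, with 63.7% to 68.0% of spots well above it. Macrophage markers were well above background on all 8 arrays for 13 of 13 genes on the array, Adgre1 (F4/80) and Ptprc (CD45) included. Markers of tumour epithelium were also present (6 of 8 genes well above background on all arrays), as were those of fibroblasts (6 of 6). The Atf3 probe read 4.92, 4.99, 4.79 and 4.51 in WT and 5.51, 4.86, 4.96 and 4.88 in the samples labelled KO (here and throughout in the order of replicate number), a difference of 0.25 ± 0.21 (SE, adjusted p = 1.00, limma). It was not lower in the KO samples. The sources used here do not give this probe's position relative to the deletion, so it does not check the labels.

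No respiratory chain gene passed the test between the genotypes. Of the 87 members, 85 were tested, all well above background on all 8 arrays, and Cox7b2 and Cox8c were above background on 0 arrays. At an adjusted p under 0.05 (limma, Benjamini-Hochberg over 20887 genes) the count was 0 of 85 members, against 0% of all genes tested. At an unadjusted p under 0.05 it was 2 members, Ndufb3 and Ndufs3, which is 2.35% of them against 3.35% of all genes; both were higher in KO, as were 1.12% of all genes at that threshold. The groups did not overlap, with every KO sample above every WT sample, for 3 members (Ndufb3, Ndufs3 and Atp5o) against 0.756% of all genes tested, and for 0 members the other way, against 1.37%.

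What the members shared was a small positive difference. The level was higher in the KO mean for 72 of 85 members (84.7%), against 48.6% of all genes tested, and the median difference over members was 0.072 on the log2 scale, against −0.0087 over all genes. This majority was lost when WT sample 4 was left out. Without that sample 39 of 85 members (45.9%) were higher in KO, against 45.9% of all genes, and the median difference was −0.014, against −0.029. Leaving out KO sample 3 also moved the median, to 0.030, with 51 members higher. The median differences within the same-numbered pairs were 0.023, 0.053, 0.024 and 0.25 for pairs 1 to 4, with 44, 55, 48 and 76 members higher in KO. Over all 20887 genes the medians were 0.021, −0.077, −0.012 and −0.0021, with 10865, 9281, 9974 and 10389 genes higher in KO. The members' median was about that of all genes in pair 1 and farthest above it in pair 4. In all 4 pairs the level was higher in KO for 22 members (25.9%), against 7.39% of all genes tested, and lower in all 4 for 1 member, Cox7a1, against 9.68% of all genes. With same-numbered samples as a block in the model, 4 members (4.71%) had an unadjusted p under 0.05 (Ndufb3, Ndufs3, Sdhaf3 and Cox7a1), against 7.55% of all genes, and 0 an adjusted one.

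**Figure D1:**
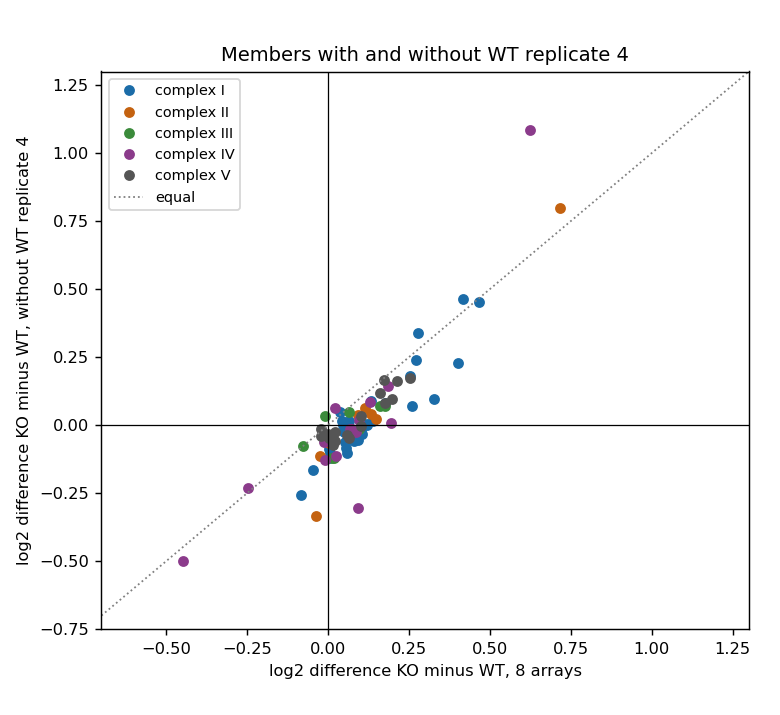
Log2 difference KO minus WT of the 85 members tested, with all 8 arrays on the x axis and without WT replicate 4 on the y axis; each point is 1 gene, coloured by complex, and the dotted line marks equal values. Most points sit right of 0 and under the dotted line, as 72 members were higher in KO with all arrays and 39 without WT replicate 4.

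The differences were small against narrow errors. The half-width of the 95% interval had a median of 0.43 over members and of 0.75 over all genes tested. The interval left out a 2-fold change in either direction for 80 of 85 members (94.1%), against 51.3% of all genes, and a 1.5-fold change for 59 of 85 (69.4%), against 18.6%. All 75 common subunits were in the first of these counts. The median SD between samples of a group was 0.24 in WT and 0.15 in KO over members, and 0.47 and 0.43 over all genes. Complex V genes had the smallest median SD of the complexes, 0.18 in WT and 0.11 in KO.

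**Figure D2:**
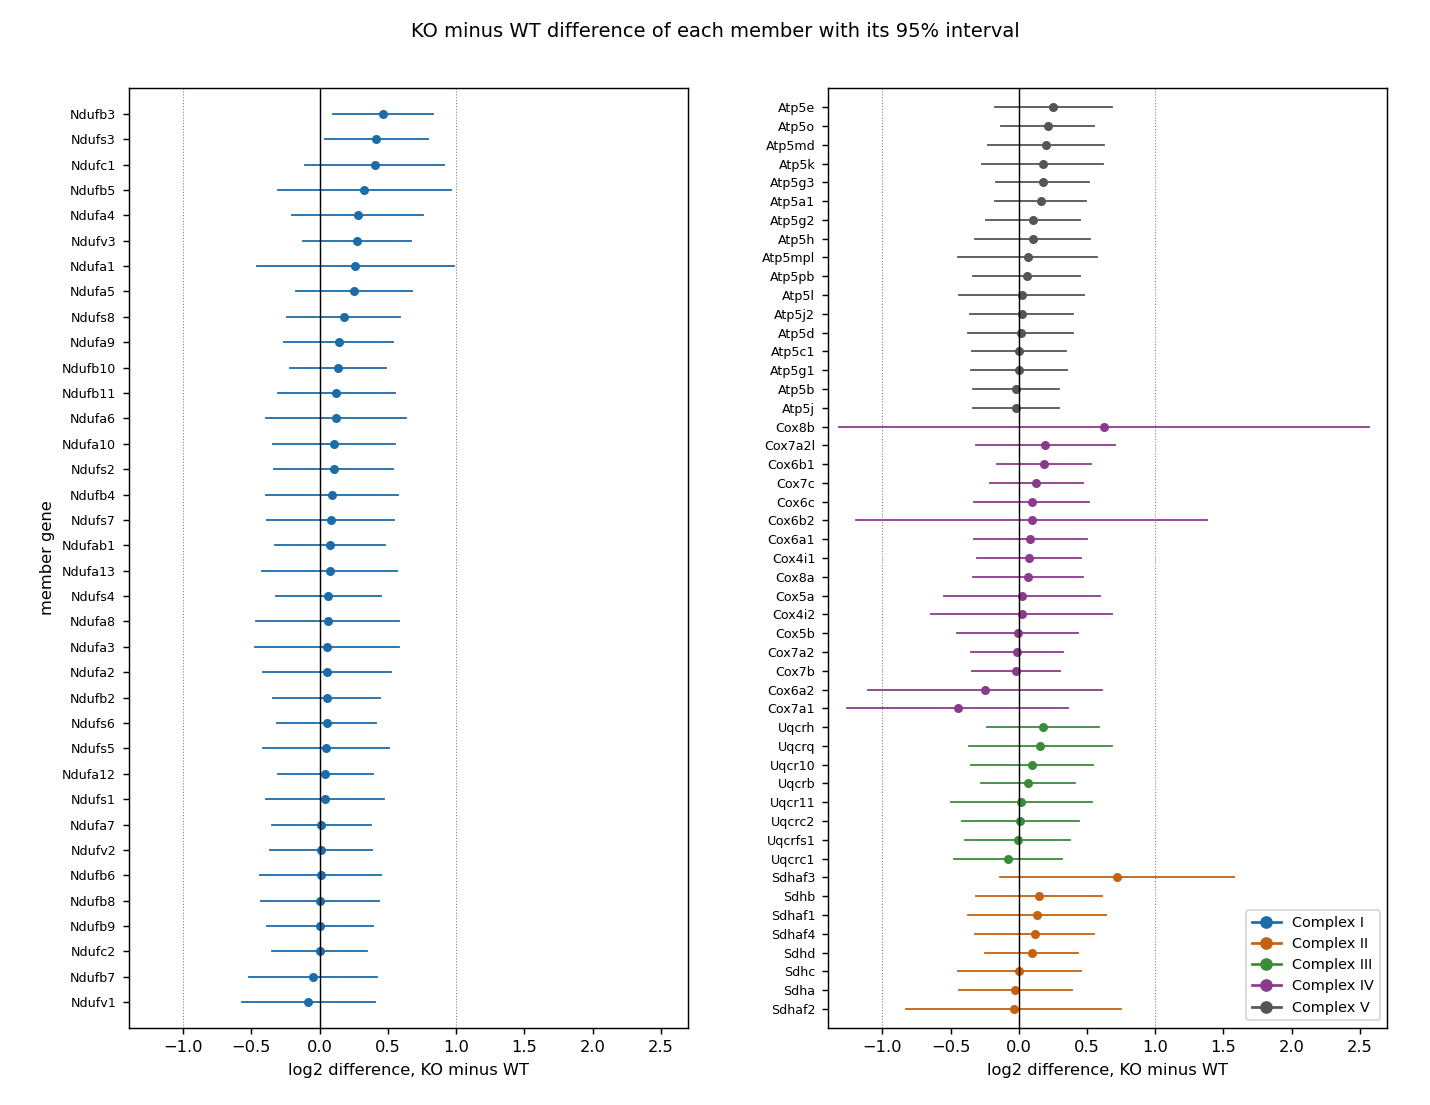
Log2 difference KO minus WT of each member tested (point) with its 95% interval from limma (line), complex I on the left and complexes II to V on the right; dotted lines mark a 2-fold difference. The points of Ndufb3 (0.47) and Ndufs3 (0.42) are the ones whose interval does not cross 0, and the widest intervals belong to Cox8b, Cox6b2, Cox6a2, Sdhaf3 and Cox7a1.

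The members varied together from sample to sample, and more than they varied with genotype. For each gene its mean over the 8 samples was subtracted, and the median of these deviations over the 85 members was 0.027, −0.067, 0.16 and −0.28 in WT and 0.074, −0.015, 0.18 and −0.064 in KO. WT sample 4 was the low one, and sample 3 was the high one in both groups. Over all genes tested, the same medians ran only from −0.063 to 0.077. WT sample 4 held the lowest of the 8 values for 62 members and the highest for 0, while over all genes it was lowest for 4370 and highest for 3637. KO sample 3 held the highest value for 27 members and WT sample 3 for 24.

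**Figure D3:**
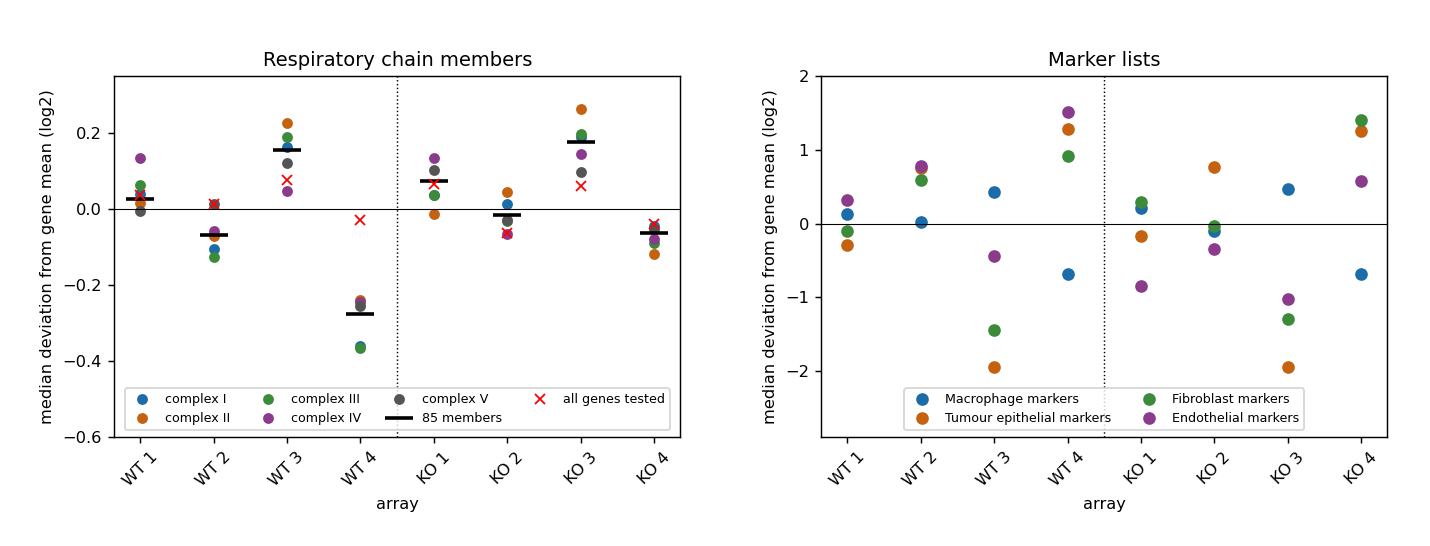
Median deviation from each gene's mean over 8 arrays (log2) by array, for the members of each complex, all 85 members and all genes tested (left) and for 4 marker lists (right). The members' median is lowest in WT 4 (−0.28) and highest in WT 3 (0.16) and KO 3 (0.18), while macrophage markers are low in WT 4 and in KO 4.

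The cell type markers moved across the samples too. The mean level of the 13 macrophage markers was 4.19, 4.12, 4.69 and 3.38 in WT and 4.25, 3.93, 4.62 and 3.41 in KO. The mean of the 7 tumour epithelial markers tested was 1.75, 2.55, 0.27 and 3.16 in WT and 1.84, 2.92, 0.061 and 3.41 in KO. Fibroblast markers averaged 0.80, 1.45, −0.58 and 1.79 in WT and 1.23, 0.90, −0.41 and 2.50 in KO. Sample 4 of each genotype was thus low in macrophage markers and high in the other lists, and sample 3 the reverse. Of the eighth epithelial marker, Csn2, 1 WT and 2 KO arrays were well above background. The members' median was lowest in sample 4 within each group, at −0.28 in WT and −0.064 in KO, as was the mean of the macrophage markers, at 3.38 and 3.41. These 3 lists had median differences between the genotypes of −0.042 (macrophage, 3 of 13 higher in KO), 0.11 (epithelial, 5 of 7) and 0.17 (fibroblast, 5 of 6). Other lists differed more. NK cell markers were higher in KO for 6 of 6 genes (median 0.78), T cell markers for 7 of 8 (median 0.51) and endothelial markers for 0 of 7 (median −0.63). Of the remaining lists, adipocyte markers were higher in KO for 2 of 4 genes tested (median 0.17). Striated muscle markers were higher for 3 of 8 (median −0.14) and erythroid markers for 0 of 3 (median −0.42). No gene of these lists passed an adjusted p of 0.05 (limma). An unadjusted p under 0.05 (limma) was held by 3.35% of all genes tested and, in these lists, by the endothelial Vwf and the adipocyte Adipoq alone. Of all genes tested, 48.6% were higher in KO, the share to set beside the counts above. Adipoq differed by 1.77 ± 0.43 (SE, unadjusted p = 0.0037, limma) and was well above background on only 2 WT arrays. The part of these cell types in the members' levels was not tested.

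Across the 8 samples, after each group's mean was subtracted, pairs of members correlated at 0.44 on average, against 0.017 for pairs of all genes tested. Each such value rests on 8 arrays, which the genes share along with their scaling, and is a description. Within a complex the mean ran from 0.40 (complexes IV and V) through 0.48 (II) and 0.49 (I) to 0.57 (III). Between complexes it ran from 0.35 (II with IV, and IV with V) to 0.54 (II with III). The common subunits had a mean of 0.49 and the alternative isoforms −0.035. Of the 85 members, 67 correlated above 0.5 with the median of the others. Closest to it were Atp5j2, Cox5b, Sdhd and Sdhb, at 1.00, 0.99, 0.99 and 0.98. Atp5j2 (subunit f of the ATP synthase membrane part) read 5.25, 5.13, 5.36 and 4.93 in WT and 5.22, 5.11, 5.34 and 5.09 in KO. It traced the shared pattern, high in sample 3 of both groups and lowest in WT sample 4, with overlapping groups and a difference of 0.021 ± 0.16 (SE). Farthest from it were Cox8b (−0.85), Ndufs3 (−0.31), Atp5j (−0.24), Sdhaf3 (−0.20), Atp5g3 (−0.16) and Ndufa4 (−0.15). Ndufb3, at 0.013, did not follow it either.

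**Figure D4:**
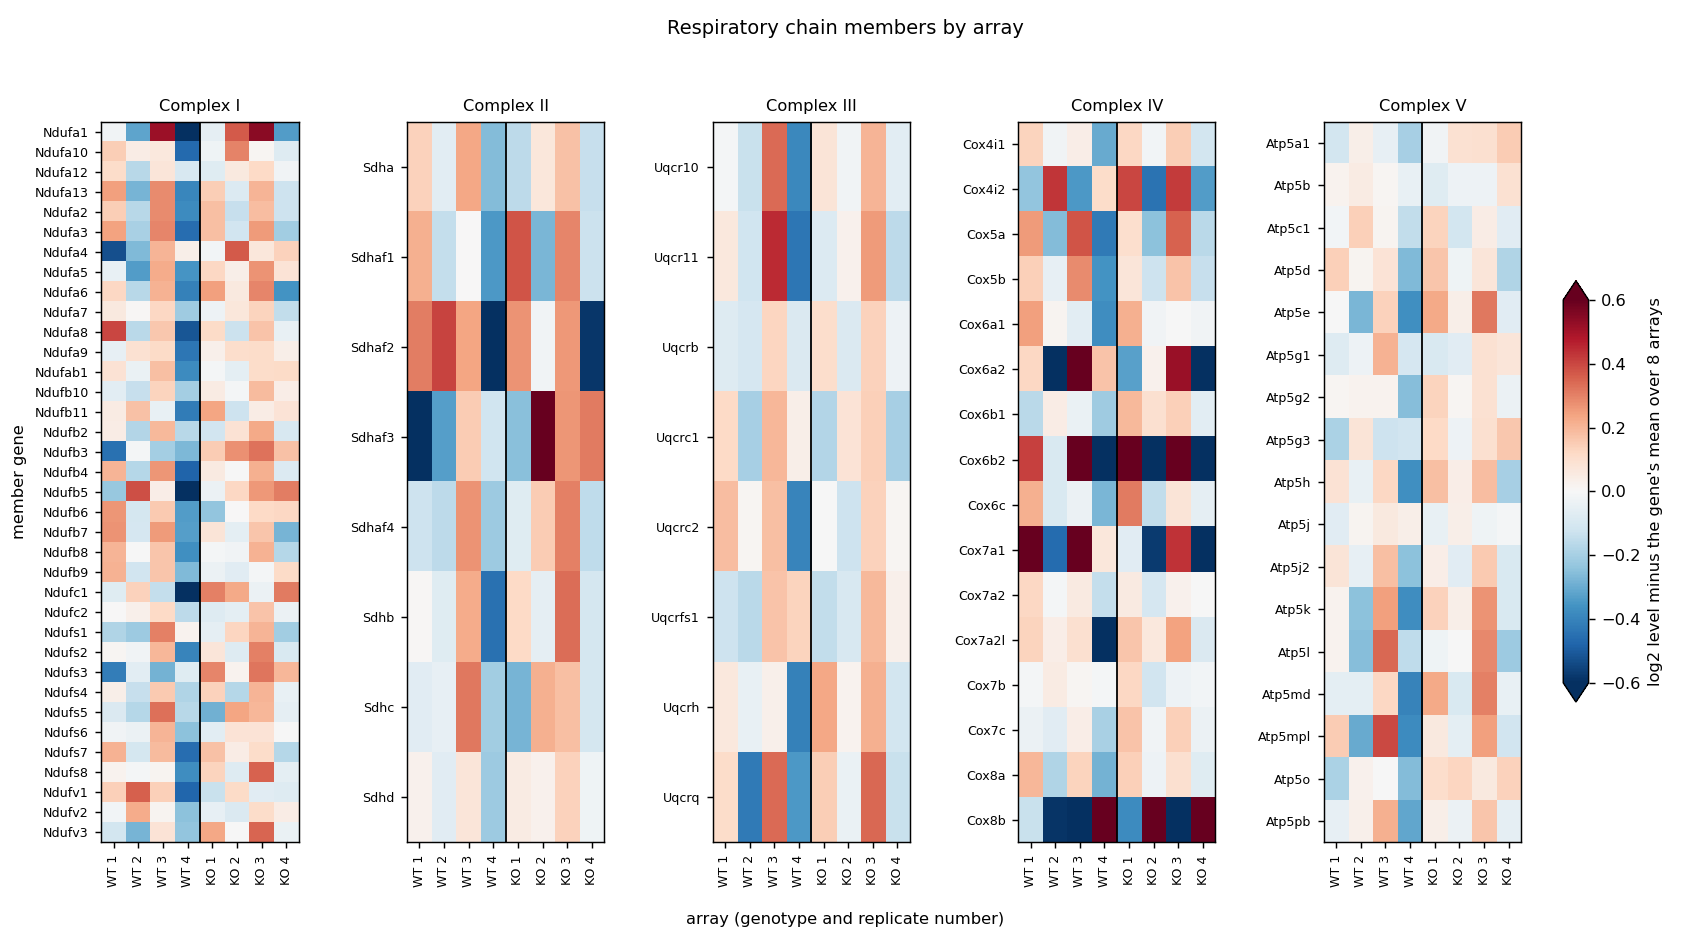
Log2 level of each tested member minus its mean over 8 arrays, 1 row per gene and 1 column per array, in a panel per complex; the colour scale stops at −0.6 and 0.6 and the vertical line parts WT from KO. The WT 4 column is blue for most genes and the WT 3 and KO 3 columns are red for most, while the rows of Ndufb3 and Ndufs3 change colour at the line.

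The sum of squares between samples gave the same order. Replicate number accounted for 71.9% of it over members and 64.1% over all genes, where its degrees of freedom alone would give 42.9%. Genotype accounted for 11.3% over members and 10.2% over all genes, where 14.3% would be given.

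Complex I takes electrons from NADH. Of its 36 genes, 34 were higher in KO, with a median difference of 0.074, and 17 without WT sample 4, with a median of −0.0071. Its intervals all left out a 2-fold change. Ndufb3, an accessory subunit of the membrane arm, read 1.87, 2.31, 2.11 and 2.05 in WT and 2.47, 2.59, 2.64 and 2.49 in KO. Every KO sample was above every WT sample, in a narrow range. The difference was 0.47 ± 0.16 (SE, unadjusted p = 0.019, adjusted p = 1.00, limma), and 0.39 to 0.54 with 1 sample left out at a time. Ndufs3, a core subunit of the arm that carries the iron-sulphur clusters, read 3.36, 3.71, 3.49 and 3.70 in WT and 4.06, 3.80, 4.09 and 3.97 in KO. The groups again did not overlap, though KO sample 2 lay close to WT samples 2 and 4. The difference was 0.42 ± 0.16 (SE, unadjusted p = 0.035, adjusted p = 1.00, limma), and 0.35 to 0.48 with 1 sample left out. Both differences were kept without WT sample 4, at 0.45 and 0.46. Each gene had 1 probe, so no other probe checks it.

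The 100 bases before the start of both genes are shown because they are the members whose groups parted most. They are from RefSeq's promoter table (build GRCm38.p6), Ndufs3 on the minus strand at chr2:90904722-90904821 and Ndufb3 on the plus strand at chr1:58586297-58586396, and are written in the direction of transcription.
Ndufs3: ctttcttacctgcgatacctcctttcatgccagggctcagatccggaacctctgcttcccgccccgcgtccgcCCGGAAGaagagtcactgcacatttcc
Ndufb3: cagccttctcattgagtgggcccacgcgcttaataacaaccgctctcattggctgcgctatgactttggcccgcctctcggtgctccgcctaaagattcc
Capitals mark CCGGAAG, a sequence bound by ETS factors, 27 to 21 bases before the Ndufs3 start. The Ndufb3 stretch held none of the 5 motifs searched.

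Other complex I genes with the smallest p-values overlapped between the groups. Ndufc1, a small membrane-arm subunit, read 2.47, 2.68, 2.40 and 1.82 in WT and 2.84, 2.77, 2.51 and 2.85 in KO, a difference of 0.40 ± 0.22 (SE). WT sample 4 was far below the rest, and without it the difference was 0.23. Its other probe differed by 0.17. Ndufv3, a subunit of the NADH-binding module, differed by 0.27 ± 0.17 (SE) on its brightest probe and by −0.066 and −0.32 on its other probes, so its probes disagreed in sign. Ndufs1, the large iron-sulphur subunit, read 2.13, 2.09, 2.61 and 2.33 in WT and 2.26, 2.44, 2.51 and 2.10 in KO. Its groups covered the same range, with a difference of 0.037 ± 0.19 (SE). Only Ndufv1 (−0.083 ± 0.21, SE), which binds NADH, and Ndufb7 (−0.047 ± 0.20, SE) had a lower KO mean in this complex. Ndufa4, now counted as a complex IV subunit though its symbol places it here, differed by 0.28 ± 0.21 (SE), and by −0.016 within slide 2.

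Complex II, succinate dehydrogenase, links the chain to the citric acid cycle. Of its 8 genes 6 were higher in KO (median 0.10), and 5 without WT sample 4 (median 0.029). The catalytic subunit Sdha read 2.21, 2.01, 2.31 and 1.81 in WT and 1.92, 2.14, 2.25 and 1.94 in KO, a difference of −0.024 ± 0.18 (SE), and its other probe gave 0.13. The iron-sulphur subunit Sdhb read 2.34, 2.26, 2.55 and 1.89 in WT and 2.45, 2.28, 2.67 and 2.23 in KO. Each KO sample was above its same-numbered WT sample, mostly by little, and the groups overlapped; the difference was 0.15 ± 0.20 (SE), and 0.022 without WT sample 4. Of the membrane anchors, Sdhd differed by 0.093 ± 0.15 (SE), and by 0.036 without that sample, and Sdhc by 0.0041 ± 0.19 (SE).

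The largest positive difference among all members was that of Sdhaf3, an assembly factor for the iron-sulphur subunit of complex II. It read −3.63, −2.83, −2.34 and −2.61 in WT and −2.75, −1.39, −2.23 and −2.18 in KO. KO sample 2 was far above all others and WT sample 1 far below, and the groups overlapped. The difference was 0.72 ± 0.37 (SE, unadjusted p = 0.090, adjusted p = 1.00, limma), and with the replicate block the unadjusted p was 0.041. Under normexp, another background correction, it was −0.015. Sdhaf4 differed by 0.12 ± 0.19 (SE) and Sdhaf1 by 0.13 ± 0.22 (SE), and by 0.062 and 0.041 without WT sample 4. Sdhaf2 differed by −0.038 ± 0.34 (SE) on its brightest probe and by 0.16 and 0.38 on its other probes.

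Complex III hands electrons from ubiquinol to cytochrome c. Of its 8 genes 6 were higher in KO (median 0.043), and 4 without WT sample 4 (median 0.0090). The hinge subunit Uqcrh read 5.34, 5.23, 5.31 and 4.88 in WT and 5.51, 5.30, 5.49 and 5.17 in KO, higher in all 4 pairs with overlapping groups. Its difference was 0.18 ± 0.18 (SE), and 0.072 without WT sample 4. Uqcrq and Uqcr10, small subunits, differed by 0.16 ± 0.23 and 0.097 ± 0.19 (SE), and by 0.070 and −0.016 without WT sample 4. Uqcrc1, a core subunit, read 2.72, 2.40, 2.80 and 2.64 in WT and 2.43, 2.68, 2.75 and 2.41 in KO. Its KO samples all lay within the WT range, with a difference of −0.076 ± 0.17 (SE) and 0.021 on its other probe. The Rieske iron-sulphur protein Uqcrfs1 differed by −0.0093 ± 0.17 (SE).

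Complex IV, cytochrome c oxidase, reduces oxygen. Of its 16 genes tested 11 were higher in KO (median 0.071), and 6 without WT sample 4 (median −0.020). Cox5a, a common subunit, read 3.64, 3.12, 3.76 and 2.96 in WT and 3.49, 3.14, 3.74 and 3.22 in KO, a difference of 0.026 ± 0.25 (SE). It was high in samples 1 and 3 of both groups and low in samples 2 and 4. Cox6b1, which sits where the dimer meets, read 4.74, 4.95, 4.86 and 4.69 in WT and 5.10, 5.002, 5.05 and 4.84 in KO. It was higher in all 4 pairs, and only KO sample 4 lay within the WT range, with a difference of 0.19 ± 0.15 (SE). Cox7c, also higher in all 4 pairs, differed by 0.13 ± 0.15 (SE), and by 0.085 without WT sample 4. Cox7a2l, which helps to join complexes III and IV into supercomplexes, read 3.91, 3.82, 3.87 and 3.11 in WT and 3.94, 3.84, 4.02 and 3.69 in KO. WT sample 4 alone set its difference of 0.20 ± 0.22 (SE), which was 0.0070 without it.

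Complex IV also has alternative isoforms, several of them known from heart and skeletal muscle or brown fat. The 5 tested spread more between samples than the common subunits, with a median SD of 0.59 in WT and 0.53 in KO, against 0.22 and 0.15. Their probes were also dimmer, with WT means from −3.76 (Cox8b) to 0.59 (Cox6a2), below the dimmest common subunit, Ndufb5 (0.73). The spread was not compared at matched signal. With the median of the other members, Cox6b2 correlated at 0.92, Cox7a1 at 0.71 and Cox6a2 at 0.55, while Cox4i2 (−0.013) and Cox8b (−0.85) departed from it. Cox7a1 read 0.81, −0.26, 0.88 and 0.27 in WT and 0.13, −0.37, 0.64 and −0.48 in KO, lower in KO in all 4 pairs. The groups overlapped widely because the pairs lay far apart, and the difference was −0.45 ± 0.35 (SE, unadjusted p = 0.24, adjusted p = 1.00, limma). With the replicate block its unadjusted p in limma was 0.045. Its common partner Cox7a2 differed by −0.012 ± 0.14 (SE). Cox6a2 read 0.60, −0.15, 1.29 and 0.64 in WT and 0.15, 0.50, 0.99 and −0.25 in KO, a difference of −0.25 ± 0.37 (SE), against 0.085 ± 0.18 (SE) for Cox6a1. It was lower in pairs 1, 3 and 4 and higher in pair 2. Cox6b2, known from testis, differed by 0.094 ± 0.56 (SE), and by −0.31 without WT sample 4. Cox4i2, a lung and hypoxia isoform, differed by 0.021 ± 0.29 (SE), against 0.075 ± 0.17 (SE) for Cox4i1.

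Cox8b, a muscle and brown fat isoform, had the widest spread of all members. It read −3.58, −4.03, −5.05 and −2.37 in WT and −3.83, −2.80, −4.75 and −1.17 in KO, a difference of 0.62 ± 0.84 (SE). Sample 4 was the highest and sample 3 the lowest of both groups, the reverse of the common subunits. The means of the tumour epithelial, fibroblast and striated muscle markers also had sample 4 highest and sample 3 lowest in both groups. For striated muscle this did not hold for the median deviation. By that measure WT sample 1 was the lowest of WT (−0.041) and KO sample 1 the highest of KO (0.20). Cox8a, the common partner of Cox8b, differed by 0.067 ± 0.17 (SE), and Cox7b by −0.019 ± 0.14 (SE). Of 11 striated muscle markers, 5 were well above background on all 8 arrays (Acta1, Tnnt3, Myh1, Myh4 and Mylpf) and Ckm, Actn3 and Pvalb on 0. The mean level of the 8 muscle markers tested was −3.43, −3.38, −3.74 and −2.80 in WT and −3.26, −3.53, −3.92 and −2.98 in KO. Of 7 adipocyte markers, 3 were well above background on all 8 arrays (Plin1, Fabp4 and Cidea), and Adipoq on 2 WT and 4 KO arrays. Ucp1, a marker of brown fat, was well above background on 1 WT and 2 KO arrays, and Cidec and Lep on 0 WT and 2 KO arrays. The part of these cell types in the isoforms' levels was not tested.

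**Figure D5:**
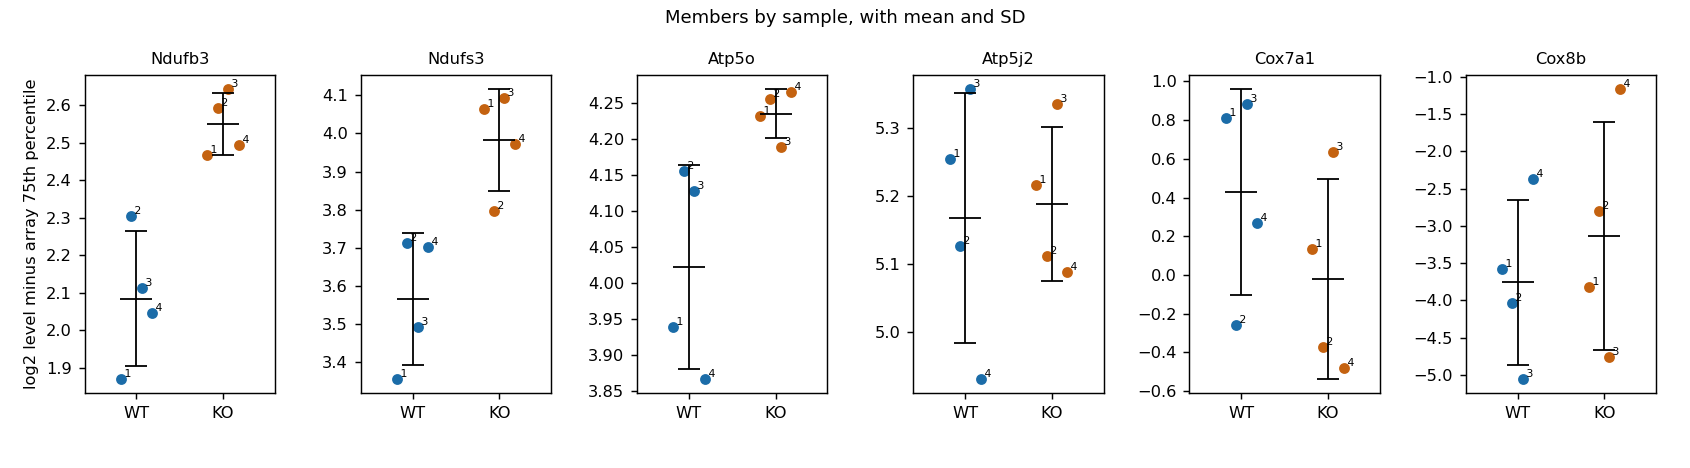
Log2 level relative to the array's 75th percentile for 6 members, 1 point per sample with its replicate number, and the mean with SD of each group (n = 4); each panel has its own axis. The groups part for Ndufb3, Ndufs3 and Atp5o and overlap for Atp5j2, Cox7a1 and Cox8b, and samples 3 and 4 take opposite ends in Atp5j2 and in Cox8b.

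Complex V makes ATP. Of its 17 genes 15 were higher in KO (median 0.066), and 7 without WT sample 4 (median −0.014). Atp5o, the stalk subunit that ties the catalytic head to the stator, read 3.94, 4.16, 4.13 and 3.87 in WT and 4.23, 4.26, 4.19 and 4.27 in KO. The groups did not overlap, but WT samples 2 and 3 came close to the KO samples. The difference was 0.21 ± 0.15 (SE, unadjusted p = 0.19, adjusted p = 1.00, limma), and 0.16 without WT sample 4. Atp5e, the epsilon subunit, read 5.55, 5.28, 5.69 and 5.18 in WT and 5.78, 5.59, 5.87 and 5.48 in KO. It was higher in all 4 pairs by similar amounts, with overlapping groups and a difference of 0.25 ± 0.18 (SE). Atp5g3, one of the genes for the rotor ring, differed by 0.17 ± 0.15 (SE), and the others, Atp5g1 and Atp5g2, by 0.0015 ± 0.15 and 0.10 ± 0.15 (SE), the last by 0.034 without WT sample 4. Atp5a1, the alpha subunit, differed by 0.16 ± 0.14 (SE). Atp5b, the catalytic beta subunit, read 4.16, 4.19, 4.15 and 4.10 in WT and 4.06, 4.11, 4.11 and 4.23 in KO. It lay in a narrow range in both groups, with a difference of −0.021 ± 0.14 (SE) and a 95% interval of −0.34 to 0.30.

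Genes around the chain were read from lists in the same way. None of their genes passed at an adjusted p under 0.05 (limma), as was so for all genes tested. At an unadjusted p under 0.05 (limma) none passed either, against 3.35% of all genes. Beside the counts for these lists, 48.6% of all genes were higher in KO, and 45.9% without WT sample 4. Of 45 assembly factors tested, 34 were higher in KO (median 0.11), and 30 without WT sample 4 (median 0.081). Sdhaf1 to Sdhaf4 are counted there too. The assembly factors with the smallest p-values besides Sdhaf3 were Ecsit (0.38 ± 0.19, SE), Ndufaf6 (0.49 ± 0.25) and Ndufaf2 (0.27 ± 0.15). Timmdc1, next in that order, was lower in KO (−0.42 ± 0.24, SE). Ndufaf6 read −0.78, −1.32, −0.45 and −1.09 in WT and −0.89, −0.27, −0.26 and −0.24 in KO, with KO sample 1 within the WT range and the other KO samples above it. Of 19 genes of the citric acid cycle and pyruvate dehydrogenase, 15 were higher in KO (median 0.059), and 10 without WT sample 4 (median 0.0013). Dld and Pdhx, components of pyruvate dehydrogenase, differed by 0.30 ± 0.20 and 0.46 ± 0.37 (SE).

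Carriers and regulators were the other lists. Of 13 genes for electron carriers and for exchange of ADP, phosphate and ions, 7 were higher in KO (median 0.033), and 5 without WT sample 4 (median −0.022). Counted here is Cyc1 (cytochrome c1), a complex III subunit whose symbol the rule did not take, which differed by −0.061 ± 0.19 (SE). The ADP/ATP carrier Slc25a5 differed by 0.17 ± 0.15 (SE) and cytochrome c (Cycs) by 0.085 ± 0.14 (SE). Of 21 regulators of mitochondrial biogenesis tested, 8 were higher and 13 lower in KO (median −0.052), and 5 were higher without WT sample 4 (median −0.054). Creb1, a factor that binds cyclic AMP response elements, read 0.91, 0.14, 0.93 and 0.65 in WT and −0.014, −0.093, 0.58 and −0.29 in KO. It was lower in KO in all 4 pairs, with KO sample 3 inside the WT range, and the difference was −0.61 ± 0.27 (SE, unadjusted p = 0.051, adjusted p = 1.00, limma). Ppard, a nuclear receptor for fatty acids, differed by −0.52 ± 0.30 (SE), and Pprc1, a coactivator related to PGC-1, by −0.35 ± 0.23 (SE). None of the 13 mitochondrially encoded subunits of the list had a probe named here. The mean correlation between genes of a list, taken as for the members, was 0.21 for assembly factors, 0.15 for the citric acid cycle, 0.047 for regulators and 0.023 for carriers, against 0.44 for the members.

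Promoter windows of 300 bases, 250 before to 50 after a start, were found for 72 of the 87 members in RefSeq's table (GRCm38.p6) and searched on both strands for 5 motifs. The NRF1 half-site GCATGCGC stood in the windows of 9 members (12.5%), against 3.05% of all 27025 genes in the table and 3.94% of protein-coding genes. The ETS motif CCGGAAG stood in 20 (27.8%), against 9.93% and 12.9%, and the YY1 motif AAGATGG in 11 (15.3%), against 7.28% and 7.18%. NRF1 and the ETS factor GABP are known regulators of respiratory chain genes. The full cyclic AMP response element TGACGTCA, the kind of site that ATF and CREB factors bind, stood in 3 (4.17%), against 2.03% and 2.54%. The AP-1 motif TGACTCA stood in 6 (8.33%), against 5.95% and 5.40%. A match describes the letters of the window and is not a site of binding.

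The stretches below hold the 3 response elements, since ATF3 belongs to the ATF/CREB family, and 1 NRF1 match, at 100 bases before the start in the direction of transcription; capitals mark the motif. They lie at chr1:92473759-92473858 (minus strand, Ndufa10), chr6:39592465-39592564 (plus, Ndufb2), chr13:30545317-30545416 (minus, Uqcrfs1) and chr5:108434400-108434499 (minus, Atp5k), in GRCm38.p6.
Ndufa10: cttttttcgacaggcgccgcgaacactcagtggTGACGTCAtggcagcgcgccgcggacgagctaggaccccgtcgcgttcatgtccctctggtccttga
Ndufb2: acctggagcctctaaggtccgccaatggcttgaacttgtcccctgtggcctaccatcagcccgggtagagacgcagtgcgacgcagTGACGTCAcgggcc
Uqcrfs1: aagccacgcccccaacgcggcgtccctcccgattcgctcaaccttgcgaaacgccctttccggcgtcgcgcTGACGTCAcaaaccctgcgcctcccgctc
Atp5k: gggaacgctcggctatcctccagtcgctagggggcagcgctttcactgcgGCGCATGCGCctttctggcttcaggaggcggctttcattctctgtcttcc
The Atp5k capitals are 2 overlapping NRF1 matches, 1 on each strand. The genes with a response element did not part the genotypes. Ndufa10 read 1.20, 1.099, 1.12 and 0.59 in WT and 1.03, 1.35, 1.07 and 0.98 in KO, with overlapping groups and a difference of 0.11 ± 0.19 (SE), and Ndufb2 and Uqcrfs1 differed by 0.053 ± 0.17 and −0.0093 ± 0.17 (SE). Atp5k, a small membrane subunit of the ATP synthase, differed by 0.18 ± 0.19 (SE). Without WT sample 4 these values were −0.032 for Ndufa10, 0.0057 for Ndufb2, 0.033 for Uqcrfs1 and 0.083 for Atp5k.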

How the data were processed

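Mouse 4x44K arrays of Agilent with 1 colour were scanned by the authors and read with Feature Extraction 10.7.1.1, per the file headers; the submitters' notes give 10.5. The deposited files hold intensity per spot (a background-corrected processed signal, a median signal and a background) and marks for outlying, saturated or bright spots. The headers name build mm9, and no coordinates were taken from them. The authors also deposited a table of intensity values with column medians of 92.0 to 94.0. Its scale is not stated. Its contrasts of arrays matched quantile-normalized median signals at a correlation of 0.999 and quantile-normalized processed signals at 0.987. It served as an alternative.

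Control and outlying spots were dropped, repeat spots averaged, and log2 processed signal minus the array's 75th percentile was used. Probes were named through accessions in RefSeq's table of GRCm38.p6: 25097 of 41174 had a symbol. The brightest probe stood for a gene, and genes well above background on at least 4 of 8 arrays were tested (20887, of which 13464 had a symbol). KO was compared with WT in limma 3.58.1 (lmFit and eBayes, R 4.3.3), two-sided and adjusted over these genes by Benjamini and Hochberg's method. Probes of such small conserved subunits can also bind transcripts of processed pseudogenes or paralogues, which makes single values uncertain. With 8 arrays, their number limits the precision.

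The members, lists, tests and naming rule were chosen with earlier results of these data known. The rule names, per complex, the 4 members of smallest unadjusted p and 1 core subunit, then the complex IV isoforms with their partners, the assembly factors and Atf3, and up to 4 genes per list. Ndufv1, Ndufb5, Ndufb7, Sdhc, Atp5g1, Atp5g2, Atp5j2, Cox5b, Atp5j, Uqcrfs1, Ndufa10, Ndufb2, Atp5k, Cycs, Cyc1 and Timmdc1 were added after their values were seen.

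What samples of 1 number share is not in the labels. After group means were taken off, WT and KO samples of the same number correlated over all genes at 0.30, 0.14, 0.70 and 0.51 for numbers 1 to 4. All were above the limit of 0.1. Of unlike numbers, WT 2 with KO 4 (0.15) and WT 4 with KO 2 (0.14) were above it as well. By this measure numbers 1, 3 and 4 pair the samples, while number 2 was not set apart from unlike numbers. The values and p-values given are those of the unpaired model, unless a block is named, since the labels state no pairing. Over the members the correlations of same-numbered samples were 0.49, −0.036, 0.81 and 0.69. Slide 1 held samples 1 and 2 of both genotypes and slide 2 held samples 3 and 4. Alternatives were normexp background correction (offset 50, on the median signal), quantile normalization, scaling to the median of bright probes, the filter dropped or made stricter (8 of 8 arrays), the deposited values, the replicate block, a slide block, either slide by itself, a trended and robust eBayes, the mean of all probes of a gene, and each sample left out.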

Additional observations from a re-analysis of the deposited data

Results flagged for a closer look

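For each genotype, the 4 values of every named member and of Atf3, and the median deviations of all members and of each complex (82 groups of 4 in all), were searched for a sample whose gap to its nearest neighbour, over the whole range, exceeded Dixon's 95% critical value. Chance gives about 1 such sample in 20 groups. Cox7a2l in WT replicate 4 read 3.11, with a ratio of 0.88 below the other WT samples. Cox6a1 in KO replicate 1 read 5.74, with a ratio of 0.91 above the other KO samples. Atf3 in KO replicate 1 read 5.51, with a ratio of 0.85 above the other KO samples.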

How the results depend on the processing

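No member passed an adjusted p of 0.05 in limma under any of the 20 alternatives, and 0 to 4 did at an unadjusted p under 0.05. Over all genes the count of calls was 0, or 0 to 1 with a sample left out; the 1, which was no member, came without KO replicate 1. With 1 sample left out, the count of members higher in KO ran from 39 (without WT replicate 4) to 77 (without WT replicate 3), and their median difference from −0.014 to 0.14. The replicate block, which pairs same-numbered samples, gave 0 members called, 72 higher and a median of 0.072; at an unadjusted p under 0.05 it gave 4 members (Ndufb3, Ndufs3, Sdhaf3 and Cox7a1; 4.71% against 7.55% of all genes), and it changed no other call. Within slide 1, 54 members (63.5%) were higher (median 0.029), against 47.2% of all genes (median −0.022). Within slide 2, 73 members (85.9%) were higher (median 0.12), against 49.4% of all genes (median −0.0039). Under normexp 79 members (92.9%) were higher, against 39.5% of all genes. The members' median was 0.22, while the median of all genes moved to −0.13, so that members stood 0.36 above it, against 0.081. Quantile normalization gave 73 members (85.9%) higher, against 51.0% of all genes, and the deposited table gave 67 (78.8%), against 50.1%.

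Of 680 values of 34 named members under these alternatives, 626 kept their direction and 54 changed it. Under normexp these were Sdhaf3 (−0.015), Uqcrc1 (0.056), Sdha (0.092), Atp5b (0.10), Cox4i2 (−0.47), Cox8b (−0.13), Cox7a2 (0.16) and Cox7b (0.20). Cox7a2 was 0.0022 under quantile normalization; Ndufs1 was −0.054 and Cox7b 0.030 in the deposited table. Within slide 1 these were Cox5a (−0.069), Cox4i2 (−0.12), Cox6a2 (0.10), Cox6b2 (−0.055), Cox4i1 (−0.00030) and Cox6a1 (−0.036), and within slide 2 Ndufs1 (−0.16), Sdha (0.035), Atp5b (0.047), Cox7a2 (0.056) and Ndufa4 (−0.016). With the mean of all probes, Ndufv3 was −0.039, Sdha 0.050 and Atp5b 0.023. With a sample left out, Ndufs1 ran from −0.030 to 0.14, Sdha from −0.12 to 0.049, Cox4i2 from −0.11 to 0.17, Cox7a2 from −0.062 to 0.028, Cox5a from −0.11 to 0.16, Uqcr10 from −0.016 to 0.23, Cox6b2 from −0.31 to 0.38, Cox4i1 from −0.014 to 0.13, Cox6a1 from −0.024 to 0.18, Cox8a from −0.016 to 0.14, Atp5b from −0.055 to 0.00060, Cox7b from −0.064 to 0.016 and Cox8b from −0.032 to 1.16. The cause of these changes was not tested.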
